A study of Mus musculus with 36 samples.

Results

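Contractile smooth muscle genes, 10 in number, were described across all 36 libraries of a mouse carotid ligation study: Acta2, Myh11, Tagln, Cnn1, Smtn, Lmod1, Myocd, Des, Synpo2 and Cald1. They were taken by symbol from the count table, which holds 49568 gene rows, and each of the 10 symbols matched 1 row. Of those rows, 18628 passed a filter on low counts, and all 10 of these genes were among them. Each library was made from the left carotid artery of 1 mouse, removed 14 days after that artery had been ligated, so the ligation is shared by every group and no library comes from an unligated artery. Mice were C57BL/6 (B6, given as C57BL/6J in the protocol) or 129X1/SvJ (129X1). They received vehicle at 2 mL/kg/day, the angiotensin receptor blocker valsartan at 27 mg/kg/day, or sacubitril/valsartan, which adds a neprilysin inhibitor, at 60 mg/kg/day. The prophylactic regimen lasted 16 days and began 2 days before ligation, and the therapeutic regimen lasted 7 days and began on day 7 after it. These 2 strains, 2 regimens and 3 treatments make 12 groups of 3 mice, whose age and sex are not given in the sources used here. The question the design puts to these genes is whether drug, regimen or strain altered their level in the injured vessel.

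In a healthy artery, medial smooth muscle cells hold a contractile programme: thin filaments of smooth muscle actin, thick filaments of smooth muscle myosin, and proteins that bind and steady the filaments. The genes of this programme are known targets of serum response factor, which binds a short DNA element called the CArG box and is switched on there by its partner myocardin. When blood flow stops and the wall remodels, smooth muscle cells are known to lose contractile gene expression as they move to a matrix-producing, migratory state, and the neointima is built in part from them. Some of these genes are not confined to smooth muscle: desmin and synaptopodin 2 are also abundant in striated muscle, and a shorter form of caldesmon is made in many non-muscle cells.

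Acta2 encodes smooth muscle actin, a near relative of the skeletal actin Acta1, and Acta1 proved very abundant in some of these libraries. The first 60 coding bases are shown because they let a reader see how far reads of the 2 actins can be told apart. They are from GENCODE transcripts on GRCm38, 5′ to 3′, and capitals mark bases that differ from Acta2.
Acta2: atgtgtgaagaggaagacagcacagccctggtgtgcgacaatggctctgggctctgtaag
Acta1: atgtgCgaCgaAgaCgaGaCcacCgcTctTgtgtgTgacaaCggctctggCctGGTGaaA
Actc1: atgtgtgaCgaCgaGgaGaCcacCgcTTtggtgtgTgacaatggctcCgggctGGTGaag
Acta1 differed from Acta2 at 17 of these 60 positions and cardiac actin, Actc1, at 14. Over the 1131 coding bases the identity to Acta2 was 85.4% for Acta1 and 82.6% for Actc1. None of the 2146 windows of 50 bases in Acta2 transcripts occurred in Acta1, which is 0 shared windows, and 7 of them, or 0.326%, occurred in another gene, Actg1 or a relative of it. For Myh11, 26 of 7644 windows, or 0.340%, occurred in Myh9 or Myh10, the non-muscle myosins. The remaining 8 genes shared from 0 to 5 windows with any other gene.

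Promoter windows in RefSeq, from 250 bases before to 50 bases after each gene start, were present for 7 of the 10 genes and not for Tagln, Myh11 and Myocd. A full CArG box, CC then 6 letters each A or T then GG, which reads the same class of letters on both strands, was in 1.63% of all 32851 windows and in 0 of the 7. With 1 of the 6 middle letters allowed to be another base, a choice made after seeing the data, the element was in 9.98% of windows, and Acta2 was the 1 gene of the 7 that held it. Its window held 2 such boxes, shown with 10 bases on each side and with the box in capitals, on the minus strand.
Acta2 box whose first base is 84 bases before the start, chr19:34255438-34255467: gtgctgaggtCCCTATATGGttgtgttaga
Acta2 box whose first base is 34 bases before the start, chr19:34255388-34255417: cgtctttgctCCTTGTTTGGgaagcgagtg
Full boxes are shown for comparison from Srf, the gene of serum response factor itself (minus strand), and from Myl9, the regulatory light chain of smooth muscle myosin (plus strand).
Srf, chr17:46556225-46556254: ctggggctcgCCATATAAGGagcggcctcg
Srf, chr17:46556205-46556234: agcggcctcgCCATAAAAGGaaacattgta
Myl9, chr2:156775293-156775322: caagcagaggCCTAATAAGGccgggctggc
A match is a string of letters in a short window, and elements outside the window were not searched.

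Depth was even, with 18962081 to 28967579 counts per library. Levels below are CPM, counts scaled by the TMM-adjusted library size, and a difference is on the log2 scale of edgeR's fit. The tissue label was checked against marker lists. All 10 smooth muscle genes were detected in every library, as were the endothelial genes Pecam1 (155 to 273 CPM) and Cdh5 (63.9 to 195 CPM). Markers of neighbouring tissue were also present and uneven: the summed level of 12 skeletal muscle genes ran from 13.7 to 38935 CPM, that of 9 thymus genes from 5.51 to 5032 CPM, that of 8 thyroid genes from 5.02 to 40803.5 CPM and that of 8 brown fat genes from 209 to 6813 CPM. In tissue of this kind, fewer smooth muscle cells and less RNA per smooth muscle cell cannot be told apart. The 129X1 prophylactic valsartan replicate 3 library stood apart, as the lowest of the 36 for 5 of the 10 genes (Acta2, Myh11, Tagln, Cnn1 and Myocd), and the strain differences of the 10 genes are given with and without it.

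Set against exon length, the actin gene was the most abundant and the coactivator gene the least. Length was the union of all annotated exons of a gene, 12041 bases for Cald1 and 13089 for Synpo2, against 2196 for Acta2 and 1988 for Tagln. Where the transcripts present use only part of that union, the level per kb is too low, so the order depends on this choice. Median levels per kb of exon were 277 CPM for Acta2, 177 for Tagln, 61.0 for Des, 36.8 for Smtn, 36.1 for Myh11, 21.8 for Cnn1, 14.9 for Cald1, 14.0 for Lmod1, 4.61 for Synpo2 and 0.201 for Myocd. Acta2 exceeded Tagln, Myh11 exceeded Cnn1, and Synpo2 exceeded Myocd in 36 of 36 libraries. The order was less firm elsewhere: Des exceeded Smtn in 21 libraries, Smtn exceeded Myh11 in 20, and Cald1 exceeded Lmod1 in 20. Myocd, as a transcription coactivator, rested on 2 to 65 counts per library (median 31.5), against 1126 to 36965 for Acta2, so its counting error is the largest of the 10.

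**Figure D1:**
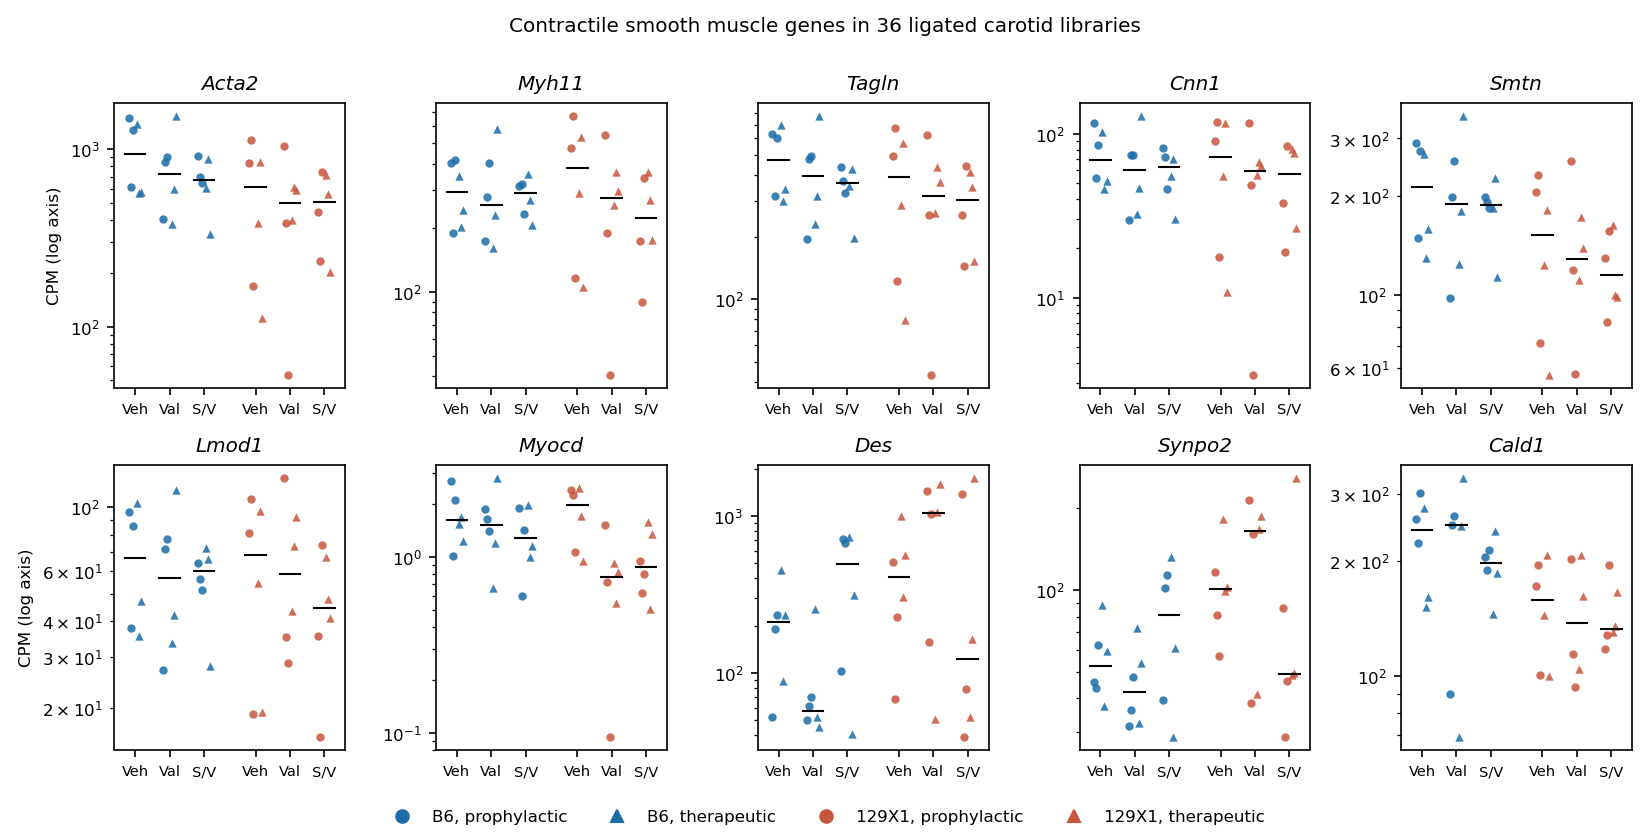
Level of each gene in CPM (log axis) in 36 libraries, by strain (colour), treatment (Veh, vehicle; Val, valsartan; S/V, sacubitril/valsartan) and regimen (circle, prophylactic; triangle, therapeutic), with a black bar at the median of the 6 libraries. Groups overlap for most genes, and Des spans the widest range, from 38.7 to 1749 CPM.

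The filament genes came first in the comparison of libraries. Acta2 (chr19:34241090-34255590), smooth muscle actin, had 1505, 614 and 1274 CPM in the 3 B6 mice on prophylactic vehicle, 406, 852 and 903 on valsartan, and 913, 692 and 645 on sacubitril/valsartan. In B6 mice on the therapeutic regimen it had 1386, 564 and 573 CPM on vehicle, 381, 596 and 1542 on valsartan, and 603, 879.8 and 332 on sacubitril/valsartan. Values of 1 group thus spread widely, and the B6 treatment groups overlapped. In 129X1 mice on the prophylactic regimen Acta2 had 840.3, 1123 and 170.2 CPM on vehicle, 1035, 386 and 53.1 on valsartan, and 442, 234 and 742 on sacubitril/valsartan. On the therapeutic regimen it had 384, 847 and 111 CPM on vehicle, 399.9, 615 and 589 on valsartan, and 719.7, 562 and 202 on sacubitril/valsartan. Each 129X1 group except therapeutic valsartan held 1 mouse at or below 234 CPM, whereas the lowest B6 library had 332 CPM.

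Myh11 (chr16:14194535-14291372), the smooth muscle myosin heavy chain, ranged from 161 to 583 CPM in B6 (median 274) and from 40.5 to 673 CPM in 129X1 (median 282). Its 2 strain medians were close, and the 129X1 libraries were more widely spread at both ends. Tagln (chr9:45929619-45936058), the actin-binding protein SM22, ranged from 196 to 772 CPM in B6 (median 365) and from 42.9 to 674 CPM in 129X1 (median 318). Cnn1 (chr9:22099216-22109630), basic calponin, which restrains actomyosin, ranged from 29.8 to 129 CPM in B6 (median 62.8) and from 3.35 to 119 CPM in 129X1 (median 59.7). Both genes had their lowest 129X1 value in the same library, valsartan replicate 3 of the prophylactic regimen, which also held the lowest Acta2 and Myh11. Smtn (chr11:3517523-3540612), smoothelin, a marker of fully contractile cells, ranged from 98.4 to 352 CPM in B6 (median 188) and from 57.05 to 256 CPM in 129X1 (median 127). Lmod1 (chr1:135324807-135368065), leiomodin, a nucleator of actin filaments, ranged from 27.1 to 115 CPM in B6 (median 60.2) and from 15.8 to 127 CPM in 129X1 (median 51.3). Cald1 (chr6:34598500-34775473), caldesmon, which binds actin and myosin, ranged from 69.1 to 331 CPM in B6 (median 219) and from 93.6 to 208 CPM in 129X1 (median 140.1). Cald1 was the exception in its spread, since its lowest library was B6 (therapeutic valsartan replicate 1) and its range in 129X1 was the narrowest of the 10 genes in that strain.

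The spread between mice of 1 group was the main feature of these genes. The within-group standard deviation of log2 CPM was 1.08 for Acta2, 0.92 for Myh11, 0.98 for Tagln, 1.20 for Cnn1, 0.66 for Smtn, 0.89 for Lmod1 and 0.57 for Cald1. The median over all genes tested was 0.45, below each of these. For Myocd it was 0.74, for Synpo2 0.87 and for Des 1.81. The 12 groups accounted for 9.56% of the variance for Lmod1 and up to 39.7% for Myocd, against a median of 32.3% over all genes tested. By this measure Lmod1, Myh11 (14.0%), Cnn1 (14.2%) and Tagln (17.3%) lay well below that median, and Myocd and Synpo2 (35.0%) above it. The share is not adjusted for the number of group means fitted, so it is positive even where groups do not differ. It is therefore read only against the median.

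Across the 36 libraries, 7 of the genes rose and fell together. Acta2, Myh11, Tagln, Cnn1, Smtn, Lmod1 and Cald1 form 21 pairs, with Pearson r of log2 CPM from 0.651 to 0.985 (median 0.864) and Spearman rho from 0.647 to 0.962. This set of 7 was seen in the data, so its range is a description. Acta2 and Tagln were closest, with r = 0.985 and rho = 0.962, where 1e-05 is the smallest p that 100000 permutations can give and the Benjamini-Hochberg value over the 55 relations computed is 2.62e-05. Myh11 and Cald1 gave the lowest of the 21, and without Cald1 the 15 remaining pairs ran from 0.820 to 0.985. Within B6 the 21 values ran from 0.709 to 0.983 and within 129X1 from 0.743 to 0.996. With each group's mean removed they ran from 0.643 to 0.995, so the genes also varied together among mice of the same group. Without the 2 libraries farthest from the median of the first gene of each pair they ran from 0.633 to 0.973.

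**Figure D2:**
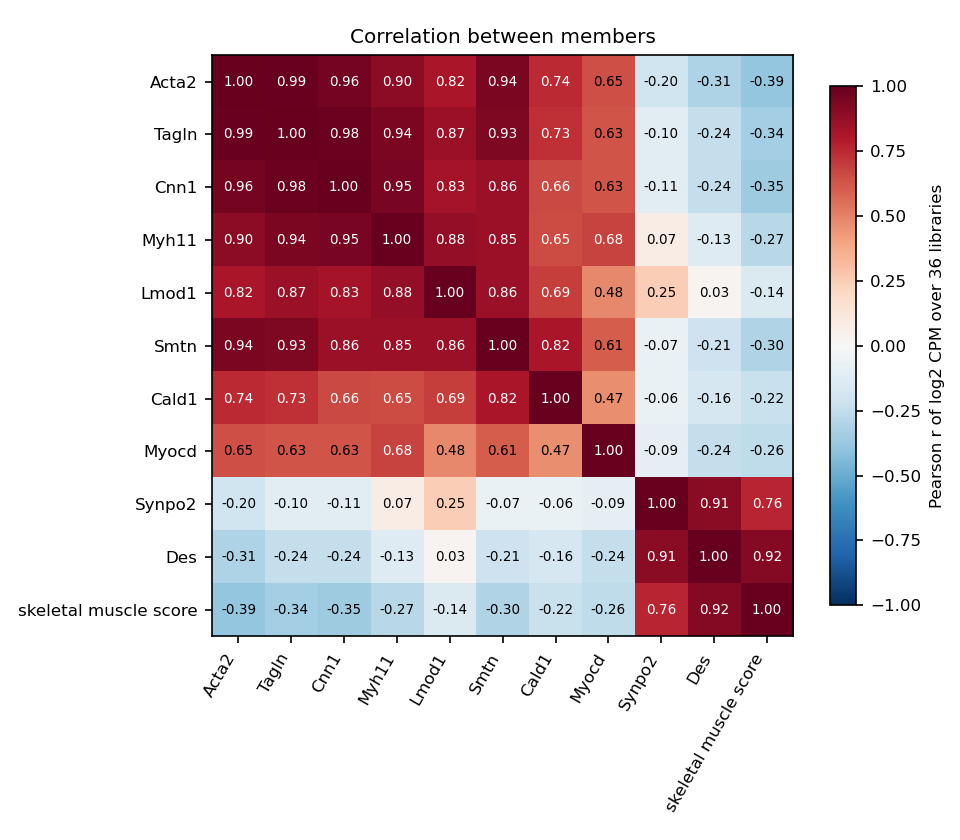
Pearson r of log2 CPM over 36 libraries for each pair of the 10 genes and for the mean log2 CPM of 12 skeletal muscle genes (colour from blue, negative, to red, positive). Acta2 to Cald1 form a red block with values from 0.65 to 0.99, and Des and Synpo2 join the skeletal muscle score instead.

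Myocd (chr11:65176561-65269989), the coactivator that drives the programme, followed the 7 genes less closely, with r from 0.467 (Cald1) to 0.675 (Myh11) and rho from 0.423 to 0.569, all with permutation-based adjusted p of 0.019 or less. Without the 2 farthest libraries these r fell to between 0.387 and 0.519. Its level near 1 CPM leaves more counting error in each value than the others carry.

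Des and Synpo2 stood outside the set. Des (chr1:75360329-75368579), the intermediate filament protein desmin, had r from -0.31 to 0.03 with the 7 genes, and none of those relations passed (smallest permutation-based adjusted p 0.105). Synpo2 (chr3:123076519-123236149), also called myopodin, an actin-bundling protein of the Z-disc and of dense bodies, had r from -0.20 to 0.25 with them (smallest adjusted p 0.202). The pair were instead close to each other, with r = 0.905 and rho = 0.901 (permutation test, adjusted p 2.62e-05), and r was 0.905 within B6 and 0.892 within 129X1. Against the mean log2 CPM of 12 skeletal muscle genes, Des had r = 0.918 and rho = 0.941, and Synpo2 r = 0.759 and rho = 0.826, each with an adjusted permutation p of 2.62e-05. Both held without the 2 farthest libraries (0.950 and 0.869). Acta2 had r = -0.389 and rho = -0.391 with the same score (permutation test, adjusted p 0.031).

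Acta1, the skeletal muscle actin, is among the genes of that score, so the values beside it show the same relation again, library by library. In the 8 libraries with Acta1 below 100 CPM, Des lay between 38.7 and 78.9 CPM and Synpo2 between 28.7 and 80.9 CPM. In the 13 libraries with Acta1 above 3000 CPM, Des lay between 452 and 1749 CPM and Synpo2 between 86.1 and 259 CPM. The 2 sets did not overlap for Des or for Synpo2, while Myh11 spanned 89.7 to 673 CPM in the first and 40.5 to 546 CPM in the second. These sets were formed from the data and are no groups of the study. Libraries between the bounds were left out, and how many of all genes separate between the sets was not computed. The low set held 3 B6 and 5 129X1 libraries, in which Des was 40.7 to 52.3 CPM and 38.7 to 78.9 CPM. The high set held 4 B6 and 9 129X1 libraries, in which Des was 452 to 739 CPM and 509 to 1749 CPM.

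**Figure D3:**
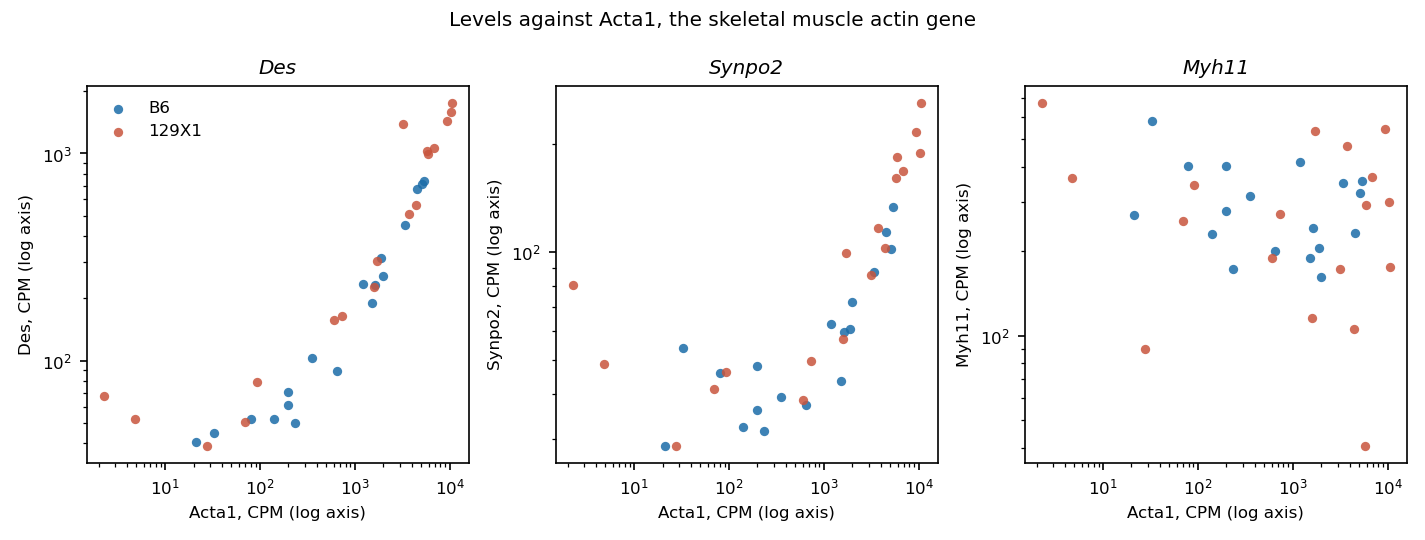
Level of Des, Synpo2 and Myh11 (vertical, CPM) against Acta1 (horizontal, CPM) in 36 libraries, both axes log, with B6 in blue and 129X1 in red. Des lies between 38.7 and 78.9 CPM where Acta1 is below 100 CPM and between 452 and 1749 CPM where it is above 3000 CPM, and Myh11 overlaps between those ranges.

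The genes of most similar pattern were named by a rule on correlation alone. Over 12520 genes with a mean of at least 5 CPM, those nearest to the mean standardised profile of the 10 were Mrvi1 (r = 0.955), a substrate of cGMP-dependent kinase, Mylk (0.951), myosin light chain kinase, and Kcnmb1 (0.923), the smooth muscle subunit of the large-conductance potassium channel. Foxc1, Adcy5, Itga8, Myl9, Stum, Npy1r and Csrp2 followed, down to r = 0.907. The nearest gene to each single member separated them again. For Acta2 it was Actg2 (0.969), enteric smooth muscle actin, for Tagln Kcnmb1 (0.983), for Myh11 and Cnn1 Itga8 (0.970 and 0.972), an integrin subunit of smooth muscle, for Smtn Foxc1 (0.951) and for Lmod1 Smoc1 (0.943). For Des it was Synpo2l (0.987), followed by Myo18b (0.981) and Rbm24 (0.979), which are known from striated muscle. For Synpo2 it was Cap2 (0.949), then Hspb6 (0.947) and Sh3bgr (0.944). For Cald1 it was Lhfp (0.963), and for Myocd Actn4 (0.741), the weakest best match of the 10.

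Strain was the comparison in which some of the genes passed. Between 18 libraries of 129X1 and 18 of B6, edgeR's quasi-likelihood test with Benjamini-Hochberg adjustment over all genes called 4 of the 10: Des and Synpo2 were higher in 129X1, and Smtn and Cald1 were lower. The same test called 33.8% of all genes tested (16.3% higher and 17.5% lower in 129X1), so 4 of 10 is a share near the background.

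Des had 40.7 CPM in the lowest B6 library, 147 at the median and 739 in the highest, against 38.7, 407 and 1749 CPM in 129X1. The 2 strains began at the same floor, and 129X1 reached higher. The difference was 1.61 on the log2 scale (SE 0.54, edgeR adjusted p 0.0208). It did not pass without 129X1 prophylactic sacubitril/valsartan replicate 1 (1.10, adjusted p 0.0906) or without 129X1 therapeutic sacubitril/valsartan replicate 3 (1.18, adjusted p 0.0719). Synpo2 ran from 28.7 through a median of 51.0 to 133 CPM in B6 and from 28.7 through 92.5 to 259 CPM in 129X1, a difference of 0.83 (SE 0.27, edgeR adjusted p 0.0187), which the second of those libraries also decided (adjusted p 0.0538 without it). Of 12 skeletal muscle markers, 2 were called higher, a share near the 16.3% of all genes, and all 12 had estimates above 0, with a median difference of 1.17. Their summed level ran from 67.6 to 24557 CPM in B6 (median 3944) and from 13.7 to 38935 CPM in 129X1 (median 9551), and none was at 0 in every library. With the skeletal muscle score as a covariate, chosen after seeing the data, the difference was 0.86 for Des (edgeR adjusted p 0.00291) and 0.63 for Synpo2 (adjusted p 0.0117), in a fit that called 32% of all genes. With like scores of adipocyte and Schwann cell genes added to it, edgeR called neither Des nor Synpo2. That fit called 17.1% of all genes.

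Smtn was lower in 129X1, with the library values given above, by a log2 difference of -0.55 (SE 0.21, edgeR adjusted p 0.0413). Cald1 was lower as well, by -0.50 (SE 0.18, adjusted p 0.0297). Both lie close to the threshold: leaving out 1 library in turn lost the call for Smtn in 22 of 36 fits and for Cald1 in 6. Without 129X1 prophylactic valsartan replicate 3, Smtn was -0.48 (adjusted p 0.0631) and Cald1 -0.46 (adjusted p 0.0506), and the count of genes passing fell to 2, since Des (1.59) and Synpo2 (0.81) still passed. That fit called 31.6% of genes. Of the marker lists, 9 of 10 macrophage genes were called lower in 129X1, against 17.5% of all genes (summed level 343 to 2239 CPM in B6, 385 to 1136 CPM in 129X1), as were 6 of 10 Schwann cell genes (601 to 2712 and 771 to 2036 CPM). Of 9 adventitial fibroblast genes 1 was called lower, a share below that of all genes (2458 to 36951 and 5096 to 30789 CPM). In the opposite direction, 7 of 10 adipocyte genes were called higher in 129X1, against 16.3% of all genes (5902 to 25015 CPM in B6, 11586 to 28410 CPM in 129X1). No marker of these lists was at 0 in every library, and their part in the Smtn and Cald1 differences was not tested one by one. With 3 covariates together, the mean log2 CPM of the skeletal muscle, adipocyte and Schwann cell lists, 0 of the 10 genes were called by edgeR and 1 had an unadjusted p below 0.05, while 17.1% of all genes were called (5769 at an unadjusted p below 0.05). The estimate was then -0.12 for Smtn and 0.01 for Cald1.

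For the other 6 genes the strain difference did not pass. It was -0.62 for Acta2 (95% interval -1.28 to 0.03, edgeR adjusted p 0.135), -0.48 for Myocd (-0.997 to 0.03, 0.139), -0.32 for Tagln (-0.92 to 0.27, 0.425), -0.14 for Cnn1 (-0.83 to 0.56, 0.803), -0.08 for Lmod1 (-0.65 to 0.48, 0.856) and -0.04 for Myh11 (-0.61 to 0.53, 0.943). The median over the 10 was -0.23, against -0.02 over all genes tested. Without 129X1 prophylactic valsartan replicate 1, Acta2 and Myocd were called lower (edgeR adjusted p 0.0409 and 0.0411). That raised the count of genes passing to 6, in a fit whose share of all genes called is not given here. Without replicate 3 of the same group the values were -0.53 for Acta2 (adjusted p 0.165), -0.40 for Myocd (0.171), -0.24 for Tagln, -0.04 for Cnn1, -0.03 for Lmod1 and 0.05 for Myh11, none of which passed.

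Libraries with thymus RNA were unevenly shared by the strains, since 12 of the 16 with at least 10 CPM of Rag1, a gene of developing lymphocytes, were 129X1. Without those 16 libraries, 5 of 6 pairs of strain groups remained, with 6 129X1 and 12 B6 libraries, and 0 of the 10 genes were called by edgeR, with 1 at an unadjusted p below 0.05. The same fit called 20.3% of 18778 genes. The estimates were then 0.86 for Des, 0.77 for Synpo2, -0.44 for Smtn and -0.39 for Cald1.

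Under vehicle alone, 6 libraries of each strain, edgeR called 0 of the 10 genes, DESeq2 called 0, and 0 had an unadjusted p below 0.05, while 13.5% of all genes were called (7.02% higher and 6.52% lower). The largest estimates were 1.01 for Des (SE 0.91), 0.90 for Synpo2 (SE 0.47, edgeR adjusted p 0.209) and -0.79 for Acta2 (SE 0.55). Des was 0.58 without 129X1 prophylactic vehicle replicate 1, and Acta2 was -0.51 without B6 therapeutic vehicle replicate 1 and -1.22 without 129X1 therapeutic vehicle replicate 2. Fitted on the 12 vehicle libraries alone, Synpo2 was called (0.90, edgeR adjusted p 0.0454), where that fit called 13.8% of genes.

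**Figure D4:**
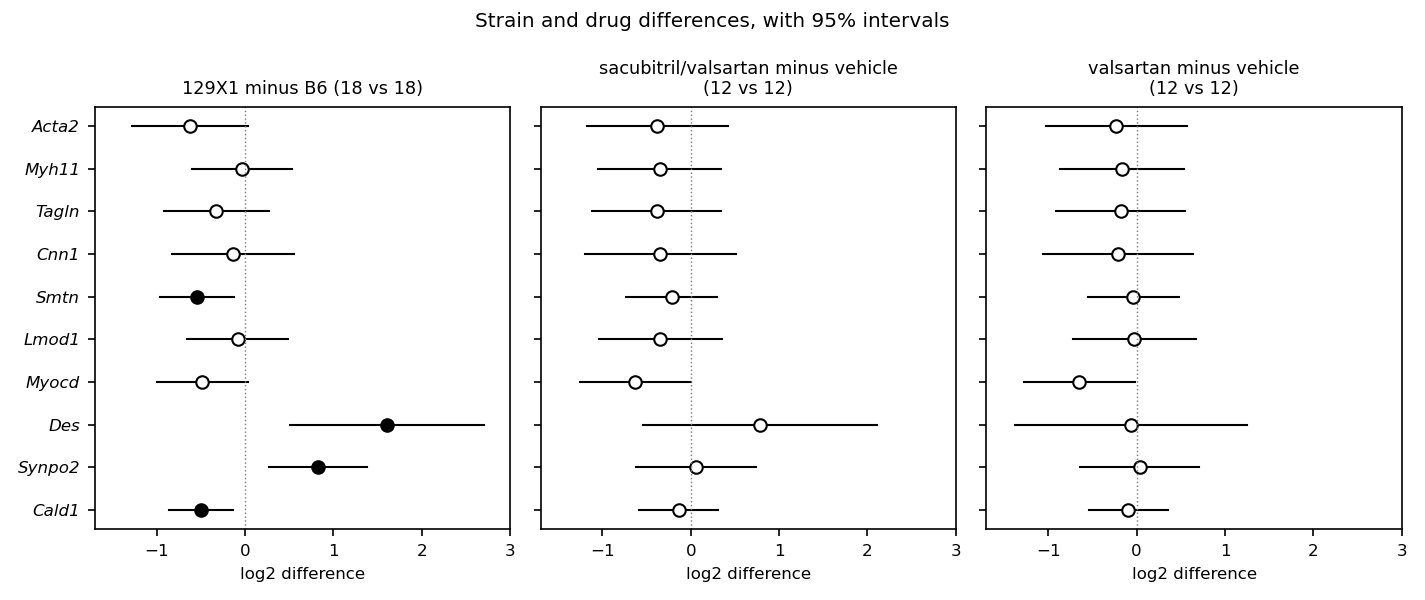
Log2 difference (horizontal) of each gene for 129X1 minus B6, sacubitril/valsartan minus vehicle and valsartan minus vehicle, with 95% intervals from edgeR's fit; filled points passed at an adjusted p below 0.05. In the strain panel Smtn, Des, Synpo2 and Cald1 are filled, and in the drug panels no point is.

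Since the 7 genes moved together, their ratios within a library were also compared. The ratio to Myh11 had coefficients of variation of 18.3% to 25.7% within a strain for Acta2, Tagln and Cnn1. In B6 the coefficient was 14.0% for Smtn, 18.2% for Lmod1 and 28.5% for Cald1. In 129X1 it was 46.2% for Smtn, 56.1% for Lmod1 and 70.0% for Cald1. There 129X1 prophylactic valsartan replicate 3, with the lowest Myh11, held the highest ratio of all 3 genes, and without it the values were 29.6%, 18.6% and 48.3%, against 24.3% for Acta2. Counts of Acta2 per count of Myh11 ran from 1.61 to 3.97 in B6 (median 2.71) and from 1.05 to 2.61 in 129X1 (median 1.73). The strains overlapped in this ratio, whose coefficient of variation was 23.2% in B6 and 24.8% in 129X1. In mice on vehicle the ratio was 2.37 to 3.97 in B6 (median 3.15) and 1.05 to 1.78 in 129X1 (median 1.53), and these ranges did not overlap. On valsartan it was 2.24 to 3.06 (median 2.47) and 1.31 to 2.04 (median 1.79), and on sacubitril/valsartan 1.61 to 3.26 (median 2.46) and 1.15 to 2.61 (median 2.12). The last pair of ranges overlapped, and the 2 before it did not. How often the ratio of any other gene to Myh11 separates the strains in this way was not computed.

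A fit that scales every gene to the Myh11 count of its library was added after these ratios had been seen. It called 10.5% of 18627 genes between strains, Acta2 among them, lower in 129X1 by -0.63 (SE 0.19, edgeR adjusted p 0.0311), where the median of all genes was 0.42. Des (2.07, adjusted p 0.0197) and Synpo2 (1.28, adjusted p 0.0246) were called higher, and Tagln (-0.30), Cnn1 (-0.18), Smtn (-0.33), Lmod1 (0.08), Myocd (-0.30) and Cald1 (-0.13) were not called. Without 129X1 prophylactic valsartan replicate 3 Acta2 was -0.60 (adjusted p 0.0209), while the calls were lost for Des (1.66, adjusted p 0.0745) and Synpo2 (0.89, adjusted p 0.106). Without the 16 libraries holding Rag1 all 3 calls were lost, with Acta2 at -0.77 (adjusted p 0.350). Scaled to Lmod1 instead, Acta2 was -0.59 with an edgeR adjusted p of 0.0692. The share of all genes called was not computed for the Myh11 fits on fewer libraries or for the Lmod1 fits. Calls lost in them therefore have no background beside them. Under vehicle, where the fit scaled to Myh11 called 2% of genes, Acta2 was -1.12 relative to Myh11 (SE 0.33, edgeR adjusted p 0.0824) and -0.80 relative to Lmod1 (SE 0.35, adjusted p 0.403).

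**Figure D5:**
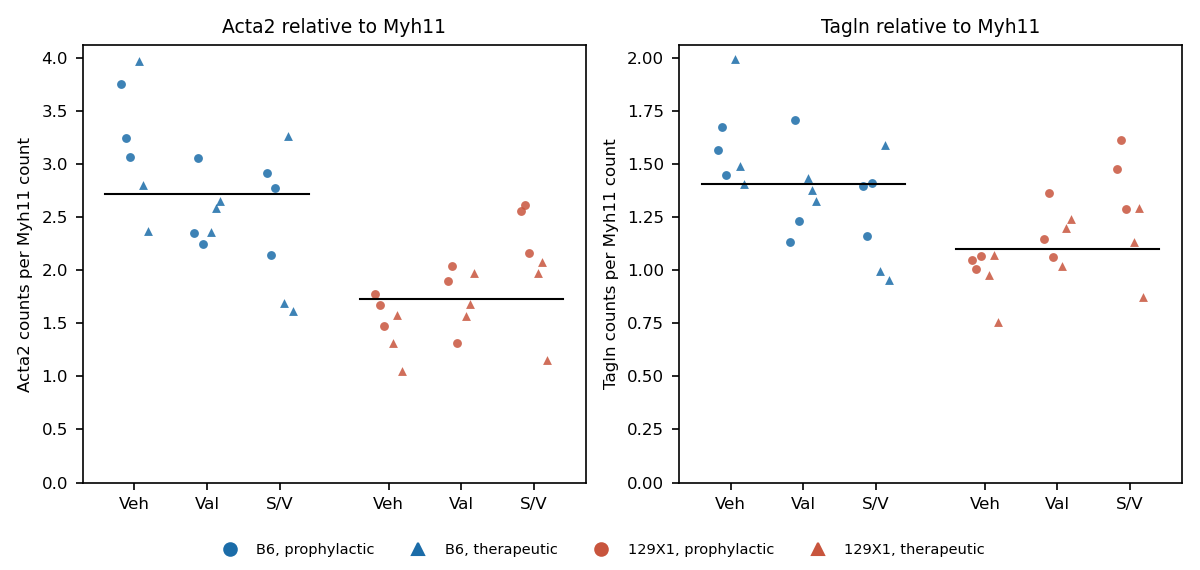
Counts of Acta2 (left) and Tagln (right) per count of Myh11 in each library, by strain (colour), treatment (Veh, vehicle; Val, valsartan; S/V, sacubitril/valsartan) and regimen (circle, prophylactic; triangle, therapeutic); the bar is the strain median. For Acta2 on vehicle the B6 libraries lie between 2.37 and 3.97 and the 129X1 libraries between 1.05 and 1.78.

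The drugs gave no passing difference in any of the 10 genes. Sacubitril/valsartan against vehicle, 12 libraries each over both strains and regimens, left 0 of 10 called by edgeR and 0 by DESeq2, with 1 at an unadjusted p below 0.05. Of all genes edgeR called 0%, DESeq2 10 genes, and 293 had an unadjusted p below 0.05. Valsartan against vehicle, which shares its vehicle libraries with the first comparison, likewise left 0 of 10 by both tools and 1 at an unadjusted p below 0.05, with 0% of all genes called by edgeR, 2 genes by DESeq2 and 453 at an unadjusted p below 0.05. The drugs against each other gave 0 of 10 by both tools, 0 at an unadjusted p below 0.05, 0% of all genes by edgeR, 17 genes by DESeq2 and 491 at an unadjusted p below 0.05.

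The estimates for sacubitril/valsartan were -0.38 for Acta2 (95% interval -1.18 to 0.42), -0.35 for Myh11 (-1.05 to 0.35), -0.39 for Tagln (-1.12 to 0.35), -0.34 for Cnn1 (-1.19 to 0.51), -0.22 for Smtn (-0.73 to 0.30), -0.34 for Lmod1 (-1.04 to 0.35) and -0.14 for Cald1 (-0.58 to 0.30). They were 0.78 for Des (-0.54 to 2.10) and 0.06 for Synpo2 (-0.62 to 0.74). The Des value rested on single libraries: it was 0.009 without 129X1 prophylactic sacubitril/valsartan replicate 1 and 0.13 without 129X1 therapeutic sacubitril/valsartan replicate 3. Leaving out 1 library also moved Acta2 between -0.499 and -0.16, Myh11 between -0.51 and -0.19 and Cnn1 between -0.53 and -0.12. The median over the 10 was -0.34, against 0.01 over all genes. Skeletal muscle markers had a median of 0.35 in the same comparison, with 12 of 12 above 0, and their part in the Des value was not tested. Relative to Myh11, where the median of all genes was 0.11, the comparison gave 0.03 for Acta2, 0.005 for Tagln, 0.04 for Cnn1 and 0.02 for Lmod1. It gave 0.12 for Smtn, 0.14 for Cald1, 0.31 for Synpo2, -0.34 for Myocd and 0.96 for Des. In that fit 0% of genes were called by edgeR and 110 had an unadjusted p below 0.05. For valsartan the estimates ran from -0.65 for Myocd to 0.03 for Synpo2, with Acta2 at -0.23 (-1.03 to 0.57) and Myh11 at -0.17 (-0.86 to 0.53). Leaving out 1 library moved Acta2 between -0.52 (without 129X1 prophylactic valsartan replicate 1) and -0.019 (without 129X1 therapeutic vehicle replicate 2), and Myh11 between -0.46 and -0.005 without the same libraries. The fit relative to Myh11, where the median of all genes was 0.28, gave -0.04 for Acta2, 0.01 for Tagln, -0.05 for Cnn1 and 0.11 for Cald1. It gave 0.20 for Smtn, 0.30 for Lmod1, 0.31 for Des, 0.42 for Synpo2 and -0.60 for Myocd. In that fit 0% of genes were called by edgeR and 79 had an unadjusted p below 0.05. The typical interval reached 0.70 to either side on the log2 scale.

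Myocd was the 1 gene of the 10 with an unadjusted p below 0.05 for either drug against vehicle. In B6 mice on the prophylactic regimen it had 2.69, 1.01 and 2.10 CPM on vehicle, 1.87, 1.64 and 1.40 on valsartan, and 1.89, 0.600 and 1.41 on sacubitril/valsartan. On the therapeutic regimen B6 mice had 1.54, 1.68 and 1.23 CPM on vehicle, 0.665, 1.19 and 2.80 on valsartan, and 1.97, 0.994 and 1.15 on sacubitril/valsartan. The B6 groups overlapped throughout. In 129X1 mice on the prophylactic regimen Myocd had 2.405, 2.23 and 1.07 CPM on vehicle, 1.52, 0.716 and 0.0944 on valsartan, and 0.951, 0.624 and 0.797 on sacubitril/valsartan. On the therapeutic regimen 129X1 mice had 2.45, 1.70 and 0.941 CPM on vehicle, 0.917, 0.547 and 0.818 on valsartan, and 1.56, 0.507 and 1.35 on sacubitril/valsartan. Compared within the same regimen, 3 mice against 3, the 129X1 vehicle libraries did not overlap with prophylactic sacubitril/valsartan or with therapeutic valsartan. They did overlap in the other pairs. How many of all genes separate in this way was not computed, so the separation only describes these values. Over both strains the difference from vehicle was -0.63 for sacubitril/valsartan (95% interval -1.26 to -0.0003, unadjusted p 0.0499, edgeR adjusted p 0.9999) and -0.65 for valsartan (-1.28 to -0.02, unadjusted p 0.0431, edgeR adjusted p 0.986). Whether valsartan acted differently in the strains was tested as an interaction, -1.13 for 129X1 minus B6 (SE 0.61, unadjusted p 0.0760, edgeR adjusted p 0.633), and did not pass.

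Des gave the largest differences in single groups. In B6 mice on the prophylactic regimen it had 52.3, 191 and 234 CPM on vehicle, 50.3, 61.1 and 70.5 on valsartan, and 103, 713 and 672 on sacubitril/valsartan. On the therapeutic regimen B6 mice had 452, 89.1 and 232 CPM on vehicle, 256, 52.1 and 44.8 on valsartan, and 739, 40.7 and 314 on sacubitril/valsartan. Prophylactic sacubitril/valsartan and valsartan did not overlap in B6, and the other B6 pairs did. The share of all genes without overlap in that pair was not computed. In 129X1 mice on the prophylactic regimen Des had 509, 68.0 and 226 CPM on vehicle, 1435, 157 and 1025 on valsartan, and 1388, 38.7 and 78.9 on sacubitril/valsartan. On the therapeutic regimen 129X1 mice had 993, 305 and 564 CPM on vehicle, 50.8, 1061 and 1594 on valsartan, and 52.5, 165 and 1749 on sacubitril/valsartan. Every 129X1 group overlapped with the others. The B6 prophylactic difference of sacubitril/valsartan from valsartan was 3.03 (SE 1.38, unadjusted p 0.0372, edgeR adjusted p 0.387). In those 6 libraries Acta1 was 355, 5162 and 4483 CPM on sacubitril/valsartan and 235, 199 and 197 CPM on valsartan.

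Within the 4 pairs of strain and regimen, 3 mice against 3, edgeR called 0 of the 10 genes in each of the 12 drug comparisons, and DESeq2 called 0 as well. Over all genes edgeR called 0% in each, DESeq2 called 0 to 48 genes, and 101 to 2400 had an unadjusted p below 0.05. Among the 10 genes, 1 reached an unadjusted p below 0.05 in B6 prophylactic sacubitril/valsartan against valsartan (Des) and 1 in 129X1 prophylactic valsartan against vehicle (Myocd, -1.28, p 0.0499, edgeR adjusted p 0.892). The typical interval in these comparisons reached 1.39 to either side. The 5 interactions of drug with strain, drug with regimen and strain with regimen called 0 of 10 by both tools with 0 at an unadjusted p below 0.05, and 0% of all genes by edgeR, 1 to 15 genes by DESeq2 and 156 to 960 at an unadjusted p below 0.05.

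Regimen made no passing difference. Therapeutic against prophylactic, 18 libraries each, gave estimates from -0.17 (Acta2) to 0.48 (Des), with 0 of 10 called by edgeR or DESeq2 and 0 at an unadjusted p below 0.05. Of all genes edgeR called 0%, DESeq2 21 genes, and 599 had an unadjusted p below 0.05. Under vehicle alone the estimates ran from -0.55 (Acta2) to 0.96 (Des), again with 0 of 10 called by either tool and 0 at an unadjusted p below 0.05, and with 0% of all genes by edgeR, 34 by DESeq2 and 297 at an unadjusted p below 0.05. Myh11 and Lmod1 were almost level between regimens, at 0.003 (95% interval -0.57 to 0.57) and -0.0004 (-0.57 to 0.57).

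Other genes of contraction were read from lists beside the 10. Of 21 further contractile apparatus genes, 1 was called higher and 4 lower in 129X1, against the background of 33.8%, with a median difference of -0.03. The one that was higher was Pdlim3 (1.33, edgeR adjusted p 0.0176), a Z-disc protein of striated muscle. Those that were lower were Actn1 (-0.47, adjusted p 0.00699), alpha-actinin of focal adhesions, Lpp (-0.33, 0.0267), Flna (-0.35, 0.0359), filamin, which crosslinks actin, and Vcl (-0.31, 0.0396), vinculin. The rest of the list was not called, with estimates from -0.35 (Pdlim7) to 0.78 (Tpm1). Among them Mylk was -0.26, Myl9 0.10, Actg2 -0.29 and Itga8 -0.03. Relative to Myh11, 1 of the 21 was called.

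Of 12 calcium and cGMP handling genes, 2 were called higher and 1 lower in 129X1, where 16.3% of all genes were called higher and 17.5% lower. Casq2, the calcium store protein of striated muscle, was higher by 0.88 (edgeR adjusted p 0.00294) and Itpr1, a calcium release channel, by 0.38 (0.00385). Cacna1c, the L-type calcium channel that admits the calcium for contraction, was lower by -0.68 (0.000701), from a mean of 23.1 CPM in B6 to 14.4 CPM in 129X1. Of 16 regulators, 4 were called lower and none higher, which is near the shares over all genes: Notch3 (-0.35, edgeR adjusted p 0.00431), a receptor of arterial smooth muscle, Elk3 (-0.42, 0.00663) and Klf4 (-0.44, 0.0480), both known to oppose the contractile genes, and Srf (-0.20, 0.0336). The median of the 16 was -0.13.

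Genes of modulated smooth muscle, the state that replaces the contractile one after injury, were lower in 129X1 rather than higher. Of 13, 8 were called lower by edgeR and none higher, with a median of -0.69, against 17.5% of all genes called lower. Thbs1, thrombospondin 1, had a mean of 54.2 CPM in 129X1 and 151 CPM in B6 (-1.51, adjusted p 7.12e-06), Vcam1 62.8 and 122 CPM (-0.94, 2.04e-05), Col8a1 37.5 and 99.2 CPM (-1.44, 9.36e-05) and Mgp, matrix Gla protein, 588 and 1193 CPM (-1.0001, 0.00279). Several of these are also made by macrophages and fibroblasts, whose counts are given above, and their part in these differences was not tested. In the drug comparisons none of these 4 lists had a gene called by edgeR, and their medians for sacubitril/valsartan against vehicle were -0.09 for contractile apparatus, -0.08 for calcium and cGMP handling, 0.002 for regulators and 0.09 for modulated smooth muscle.

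Some of the 10 genes overlap a gene on the opposite strand, by whole gene spans rather than exons. No source used here states whether counting used strand, so how reads from the overlap were assigned is not known. The neighbour's own counts, given next, show its level and do not measure reads placed in the wrong row. Summed over all libraries, the counts of the overlapping gene were 0.340% of those of Des (Gm15179), 0.211% of those of Smtn (Gm11946) and 0.525% of those of Cald1 (Gm13861). For Tagln the neighbour Pcsk7 reached 11.0%, with a median of 903 counts.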

How the data were processed

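Libraries were stranded mRNA preparations, per the labels' protocols. The authors' deposited table holds whole-number counts per gene; Trimmomatic 0.36, STAR 2.5.2b and featureCounts from Subread 1.5.0p3 with genome build GRCm38 are named per the submitters' processing notes. Whether counting used strand, and which annotation it used, is not given in the sources used here. Groups came from the strain, regimen and treatment labels. Replicates are separate mice by their animal numbers.

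Counts were filtered with filterByExpr over the 12 groups and scaled by TMM, and 1 quasi-likelihood model of group means was fitted with edgeR 4.0.16 (R 4.3.3) for 24 comparisons, with Benjamini-Hochberg adjustment over 18628 genes and a threshold of 0.05. The biological coefficient of variation was 0.463 with 24 residual degrees of freedom. Log2 CPM used a prior count of 2. DESeq2 1.42.0 was an alternative. Correlations used permutation tests (100000 draws, scipy 1.17.1). The model was tested on simulated data. Locations, sequences and exon lengths are from GENCODE M21 (GRCm38) and, for promoters, RefSeq (GRCm38.p6).

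The 10 genes and all lists were chosen with earlier results of these data known. Named genes: all 10 in each comparison; from each related list up to 4 passing genes of smallest p; the 10 genes most like the mean profile and the nearest to each gene. Vcl and the list genes given as not called were named after their values were seen. Alternatives were other scalings, no filter, DESeq2, fewer libraries, covariates and leaving out each library. Pericyte genes (4 of 9 lower in 129X1), cardiac muscle genes (1 of 4 tested higher), endothelial genes (2 of 10 lower), B and plasma cell genes (6 of 9 higher), thymus genes (1 of 9 higher), thyroid genes (2 of 8 lower) and brown fat genes (6 of 8 higher) were read as marker lists. Of 10 sympathetic neuron and glomus cell genes edgeR called none. Over all genes tested 16.3% were called higher and 17.5% lower in 129X1. The pericyte, B and plasma cell and brown fat counts lie above those shares, and the cardiac muscle, endothelial, thymus and thyroid counts near them.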

Additional observations from a re-analysis of the deposited data

How the results depend on the processing

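No paired analysis was possible because the labels give no replicate numbers: those used here follow the order of the samples and only name mice. The 4 genes passing between strains became 0 with 3 list scores as covariates, 2 with the skeletal muscle score alone (chosen after seeing the data) and 0 once libraries with at least 10 CPM of Rag1 were left out. Under vehicle, a fit of only the libraries compared called 1 (Synpo2, 0.90, edgeR adjusted p 0.0454) where 0 passed. The cause was not tested. In 204 other comparisons of such counts the count was unchanged or stayed within 1.5 times. In every comparison but strain the main count was 0, so there it only means that the count stayed at 0. Those cases say little about how firm the results are.

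Some differences changed sign. With 3 list scores they were 0.44 for Myh11, 0.22 for Tagln, 0.44 for Cnn1, 0.28 for Lmod1 and 0.012 for Cald1, the last of which had passed, and under vehicle 0.028 for Tagln, 0.28 for Cnn1 and 0.0499 for Lmod1. Without the Rag1 libraries they were 0.16 for Myh11 and 0.023 for Lmod1, and under vehicle 0.13 for Cnn1 and 0.033 for Lmod1. With the skeletal muscle score Myh11 was 0.0095, and with library totals alone Myocd under vehicle was -0.0297. For sacubitril/valsartan against vehicle Synpo2 was -0.065 with 3 list scores and -0.023 with the skeletal muscle score. For valsartan Synpo2 was -0.025 with the skeletal muscle score and -0.39 without the Rag1 libraries, and with library totals alone Smtn was 0.0024 and Lmod1 0.0075.

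Leaving out 1 library in turn gave 1 to 6 genes passing between strains. The share of all genes called is given only for the fit without 129X1 prophylactic valsartan replicate 3, at 31.6%. The other counts have no background beside them. The count was 1 without 129X1 therapeutic sacubitril/valsartan replicate 3. It was 2 without B6 prophylactic valsartan replicate 3, B6 therapeutic vehicle replicate 1, B6 therapeutic valsartan replicate 3, B6 therapeutic sacubitril/valsartan replicate 2, 129X1 prophylactic valsartan replicate 3, 129X1 prophylactic sacubitril/valsartan replicate 1 or 129X1 therapeutic vehicle replicate 3. Strain differences that changed sign ran from -0.23 to 0.085 for Myh11 and from -0.25 to 0.041 for Lmod1. Under vehicle they ran from -0.042 to 0.50 for Myh11, -0.60 to 0.0902 for Cnn1, -0.42 to 0.19 for Lmod1 and -0.10 to 0.23 for Myocd. For sacubitril/valsartan against vehicle Synpo2 ran from -0.26 to 0.16. For valsartan the ranges were -0.44 to 0.014 for Tagln, -0.49 to 0.0064 for Cnn1, -0.21 to 0.068 for Smtn, -0.27 to 0.13 for Lmod1, -0.39 to 0.15 for Des, -0.085 to 0.14 for Synpo2 and -0.20 to 0.013 for Cald1. Depth limits Myocd most, at 2 to 65 counts per library.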
